A study of Homo sapiens with 4 samples.

Results

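Transcripts of 10 genes of the YAP and TEAD system were followed in the small cell lung cancer line NCI-H1048, which is human and of the tuft cell-like subtype. The genes are the coactivator genes YAP1 and WWTR1, the transcription factor genes TEAD1 and TEAD4, and 6 genes known as direct YAP targets, CCN1, CCN2, ANKRD1, AMOTL2, AJUBA and AXL. They were chosen by symbol from 35979 symbols, and each had 1 row in the tables. The guide RNA (gRNA) given to the cells targeted COLCA2, whose product is a coactivator of the transcription factor POU2F3, or POU2F3 itself, and control cells had a gRNA with no target. The genotypes are labelled COLCA2 knockout, POU2F3 knockout and WT, and no drug or other treatment is given for any library. COLCA2 was targeted with 2 guides, gRNA 1 and gRNA 2, in 1 library apiece, and POU2F3 gRNA and the non-targeting gRNA had 1 library apiece. The labels used here do not say whether the cells were clones or pools, nor how long after the gRNA they were collected.

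YAP, encoded by YAP1, and TAZ, encoded by WWTR1, are coactivators that bind no DNA themselves and reach their target genes through the TEAD transcription factors. The Hippo kinases MST and LATS phosphorylate YAP and TAZ, which holds them in the cytoplasm and favours their degradation. In small cell lung cancer, neuroendocrine tumours are known for little or no YAP1, whereas YAP1 is found in non-neuroendocrine cells. RNA levels do not measure the phosphorylation or the location of YAP and TAZ.

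The recovered read totals ranged from 21587741 to 29632382 per library. The targeted genes were lower in the libraries named for them. POU2F3 had a normalized count (reads of a gene divided by 1 factor per library) of 14602 in the non-targeting library and 1449 with POU2F3 gRNA. It was also lower with the COLCA2 guides, at 3677 and 2351. COLCA2 had 5585 in the non-targeting library, 3119 with gRNA 1 and 3541 with gRNA 2, and it was lowest with POU2F3 gRNA, at 1393. Of the neuroendocrine markers, NEUROD1 and CHGA reached at most 12.9 in any library, while SYP was between 48.2 and 74.5. INSM1 was 118 with the non-targeting gRNA, 23.8 and 24.7 with the COLCA2 guides, and 35.3 with POU2F3 gRNA, more than 2-fold lower in all 3 targeted libraries. The epithelial marker EPCAM was at least 2463 in each, and the tuft marker TRPM5 reached at most 2.35. All comparisons with the non-targeting gRNA share that single library. The only spread within a group was between the COLCA2 guides, which are different guides with 1 library apiece. The 2-fold counts below are therefore given without a test, and edgeR and DESeq2 were run only as alternatives that borrow the spread between the guides. Intervals given with folds are exact 95% intervals from the reads of a pair of libraries and cover counting error only. Each log2 ratio was taken after adding 1 to the normalized counts, whereas folds are plain ratios of normalized counts.

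YAP1 was several-fold higher in every targeted library, and WWTR1 was higher by a smaller factor. YAP1 (ENSG00000137693) is a plus-strand gene of chromosome 11 (102110461 to 102233423, GRCh38). The YAP1 normalized count was 776 with the non-targeting gRNA, 2795 and 3475 with COLCA2 gRNA 1 and gRNA 2, and 3612 with POU2F3 gRNA. The non-targeting library was the lowest, and the POU2F3 gRNA library lay close to COLCA2 gRNA 2. YAP1 was 3.60-fold higher with gRNA 1 (3.33 to 3.90), 4.48-fold higher with gRNA 2 (4.14 to 4.84) and 4.65-fold higher with POU2F3 gRNA (4.32 to 5.02). Its mean log2 ratio over the COLCA2 guides was 2.00 ± 0.22 (SD, n = 2). Here and below, that SD is between different guides, and the spread of the single non-targeting library is unknown. In RNA of whole cultures, more cells that express YAP1 and more YAP1 RNA per cell cannot be told apart, and the same holds for each gene below.

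WWTR1 (ENSG00000018408), on the minus strand of chromosome 3 at 149517235 to 149736714, had normalized counts of 2171 with the non-targeting gRNA, 3275 and 3890 with COLCA2 gRNA 1 and gRNA 2, and 4513 with POU2F3 gRNA. The order was the non-targeting library lowest and the POU2F3 gRNA library highest, with the COLCA2 guides between them. The fold was 1.51 (1.43 to 1.59) with gRNA 1, 1.79 (1.70 to 1.89) with gRNA 2 and 2.08 (1.98 to 2.18) with POU2F3 gRNA. WWTR1 thus reached 2-fold in the POU2F3 gRNA library alone, and the interval of that fold includes 2. Per kilobase of the longest annotated transcript, the WWTR1 level in the non-targeting library was 432 and the YAP1 level 144. The WWTR1 and YAP1 levels per kilobase were closer in the targeted libraries, at 651 and 518 with gRNA 1, 773 and 644 with gRNA 2, and 897 and 669 with POU2F3 gRNA.

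**Figure D1:**
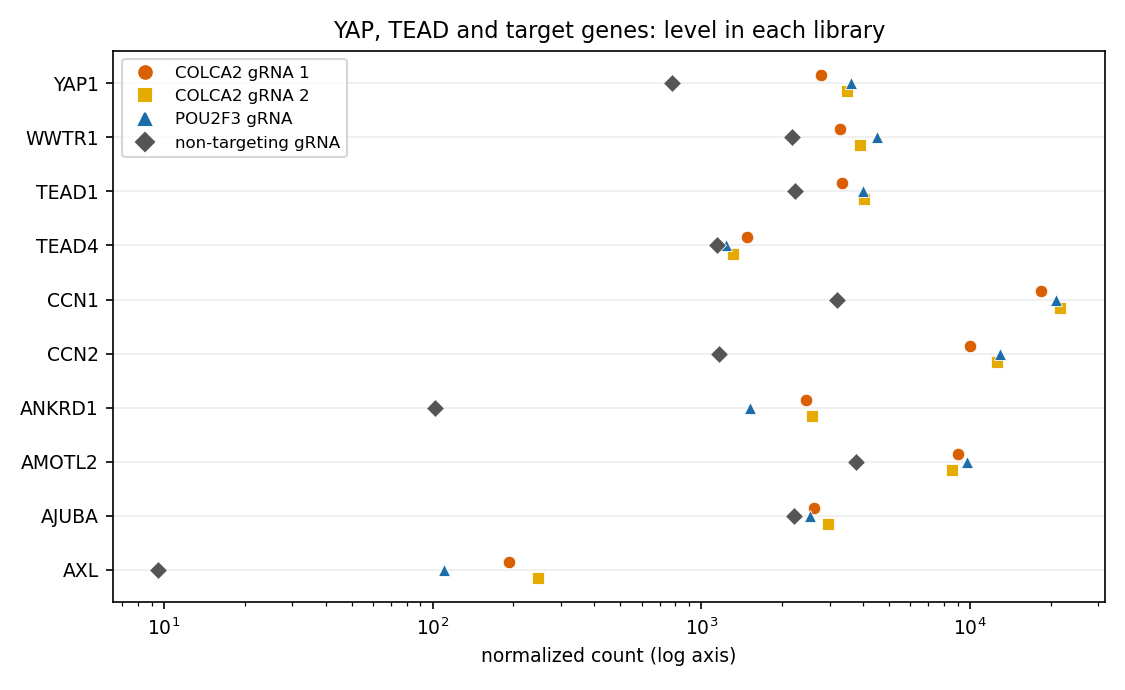
Normalized count (log axis) of each of the 10 genes in the 4 libraries, 1 point per library. The non-targeting library (diamond) is the lowest for every gene, far to the left for ANKRD1 (102) and AXL (9.55) and close to the others for TEAD4 and AJUBA.

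The TEAD factors, which carry YAP and TAZ to DNA, differed less than YAP1, and neither TEAD1 nor TEAD4 reached 2-fold in any library. TEAD1 (ENSG00000187079; chromosome 11, 12674591 to 12944483, plus strand) had normalized counts of 2225 with the non-targeting gRNA, 3329 and 4030 with COLCA2 gRNA 1 and gRNA 2, and 3994 with POU2F3 gRNA. The targeted libraries were all above the non-targeting one, and the POU2F3 gRNA library lay between the guides. The mean log2 ratio of TEAD1 was 0.72 ± 0.19 (SD, n = 2) over the COLCA2 guides and 0.84 with POU2F3 gRNA.

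TEAD4 (ENSG00000197905; chromosome 12, 2959330 to 3040673, plus strand) had normalized counts of 1140 with the non-targeting gRNA, 1485 and 1307 with COLCA2 gRNA 1 and gRNA 2, and 1240 with POU2F3 gRNA. It was 1.09-fold higher with POU2F3 gRNA (1.01 to 1.17), and its mean log2 ratio over the COLCA2 guides was 0.29 ± 0.13 (SD, n = 2). Ratios of that size were common: 22.8% of the 14940 genes tested, those averaging 20 or more in normalized count, had a COLCA2 ratio at or above that of TEAD4. The remaining family members TEAD2 and TEAD3, singled out once their values were known, averaged log2 ratios of -0.32 ± 0.075 and 0.47 ± 0.014 between the COLCA2 guides (SD, n = 2), and stood at -0.07 and 0.39 in the POU2F3 gRNA library.

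CCN1 and CCN2 encode secreted matricellular proteins and are standard readouts of YAP and TEAD activity. CCN1 (ENSG00000142871; chromosome 1, 85580761 to 85583962, plus strand) had normalized counts of 3202 with the non-targeting gRNA, 18379 and 21551 with COLCA2 gRNA 1 and gRNA 2, and 20909 with POU2F3 gRNA. The targeted libraries formed a narrow group, 5.74-fold (5.53 to 5.96), 6.73-fold (6.49 to 6.99) and 6.53-fold (6.30 to 6.77) above the non-targeting library. CCN2 (ENSG00000118523; chromosome 6, 131948176 to 131951373, minus strand) had 1159 with the non-targeting gRNA, 10015 and 12567 with the COLCA2 guides, and 12891 with POU2F3 gRNA. The fold of CCN2 was 8.64 (8.14 to 9.18) with gRNA 1, 10.8 (10.2 to 11.5) with gRNA 2 and 11.1 (10.5 to 11.8) with POU2F3 gRNA. CCN2, like CCN1 and YAP1, was lowest of the targeted libraries in gRNA 1.

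The sequences before the starts of CCN2 and YAP1 and around the matches at ANKRD1 are shown because the TEAD recognition motif GGAATG could be read there directly. They are RefSeq sequences of GRCh38.p14, 5′ to 3′ on the strand of the gene, and capitals mark each GGAATG or its reverse complement CATTCC. CCN2 is shown for the 250 bases before its RefSeq start, chr6:131951373-131951622 on the minus strand, and YAP1 for the same length, chr11:102110197-102110446 on the plus strand. ANKRD1 is shown for 30 bases around each match, chr10:90921290-90921319 and chr10:90921198-90921227 on the minus strand.
CCN2: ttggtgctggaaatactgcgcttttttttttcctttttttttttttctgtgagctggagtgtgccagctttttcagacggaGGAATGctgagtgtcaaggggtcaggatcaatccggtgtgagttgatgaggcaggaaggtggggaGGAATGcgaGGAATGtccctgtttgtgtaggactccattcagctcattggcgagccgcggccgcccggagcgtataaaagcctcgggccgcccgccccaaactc
YAP1: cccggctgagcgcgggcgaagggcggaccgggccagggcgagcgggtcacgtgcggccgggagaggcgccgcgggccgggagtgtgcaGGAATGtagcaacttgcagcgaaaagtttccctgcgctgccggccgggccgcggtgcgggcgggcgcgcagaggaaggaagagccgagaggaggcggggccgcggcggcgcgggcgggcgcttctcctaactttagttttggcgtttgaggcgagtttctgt
ANKRD1 distal match: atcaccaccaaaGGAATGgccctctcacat
ANKRD1 proximal match: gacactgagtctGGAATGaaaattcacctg
The CCN2 window held 3 matches, beginning 169, 104 and 95 bases before the start. At least 3 matches were present in 0.0826% of the 35116 tabulated promoters, at least 2 in 0.940% and at least 1 in 11.9%. ANKRD1 had 2 matches, 220 and 128 bases before its RefSeq start, and YAP1 had 1 match, 162 bases before. Tabulated promoters were found for 7 of the 10 genes, with 11 starts in all. A match was present at 6 of the 11 starts, 1 each for YAP1, CCN2, ANKRD1, AMOTL2, AJUBA and AXL, and at neither tabulated start of WWTR1. Both WWTR1 starts lie inside the annotated gene, so the bases before its 5′ end at 149736714 were not searched. For AMOTL2, AJUBA and AXL, the start nearer the 5′ end of the annotated gene held no match. AJUBA, whose ratios were among the smallest of the 10, and AXL, whose ratios were among the largest, thus both had a match only at an inner start. Any relation of the matches to the ratios was not tested. Only the ANKRD1 window held the AP-1 motif TGANTCA (195 bases before the start), which 6.57% of promoters hold. The octamer ATGCAAAT, the recognition sequence of POU2F factors, was found at 1 start of AJUBA, 241 bases before it, and in 1.63% of all promoters. The motifs were searched on both strands, and a match is a description of the letters, not a binding site.

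ANKRD1, which encodes a cardiac ankyrin repeat protein used as a YAP target readout in many cell types, had the largest log2 ratios of the 10 genes in each targeted library. By plain fold, without the added count, AXL was slightly above ANKRD1 with gRNA 2 (25.7 against 25.3). The gene (ENSG00000148677) lies on the minus strand of chromosome 10 at 90912096 to 90921276. Its normalized count was 102 with the non-targeting gRNA, 2453 with the first COLCA2 guide, 2584 with the second and 1520 with POU2F3 gRNA. The guides lay close together and above the POU2F3 gRNA library, which in turn was far above the non-targeting library. The fold was 24.0 (19.8 to 29.4) with gRNA 1, 25.3 (20.8 to 31.0) with gRNA 2 and 14.9 (12.2 to 18.3) with POU2F3 gRNA, against 107 non-targeting reads.

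AXL (ENSG00000167601; chromosome 19, 41219203 to 41261766, plus strand) encodes a receptor tyrosine kinase of the TAM family. It had normalized counts of 9.55 with the non-targeting gRNA, 192 and 246 with COLCA2 gRNA 1 and gRNA 2, and 110 with POU2F3 gRNA, from 10, 185, 209 and 131 reads. AXL was the least abundant of the genes in every library and passed the expression minimum only through the targeted libraries. Its fold was 20.1 (10.7 to 42.6) with gRNA 1, 25.7 (13.7 to 54.5) with gRNA 2 and 11.5 (6.07 to 24.6) with POU2F3 gRNA. The few non-targeting reads make these the widest intervals of the set. A pseudocount of 10 lowered the mean log2 ratio of AXL over the COLCA2 guides from 4.37 to 3.54, and that with POU2F3 gRNA from 3.39 to 2.62.

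AMOTL2 and AJUBA encode proteins that feed back on the Hippo pathway: AMOTL2 is an angiomotin that binds YAP, and AJUBA is a LIM protein that restrains LATS. AMOTL2 (ENSG00000114019; chromosome 3, 134355874 to 134375479, minus strand) had normalized counts of 3768 with the non-targeting gRNA, 9027 and 8564 with COLCA2 gRNA 1 and gRNA 2, and 9736 with POU2F3 gRNA. It was between 2.27-fold and 2.58-fold higher in the targeted libraries, with a mean log2 ratio of 1.22 ± 0.054 over the guides (SD, n = 2). AJUBA (ENSG00000129474; chromosome 14, 22971174 to 22982642, minus strand) had 2218 with the non-targeting gRNA, 2622 and 2958 with the guides, and 2542 with POU2F3 gRNA. Its fold did not exceed 1.33 in any library, and 20.8% of the 14940 genes had a COLCA2 ratio at or above its own. A same-strand gene, AL132780.3, overlaps AJUBA by 11085 bases and was listed at 0 in every library.

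**Figure D2:**
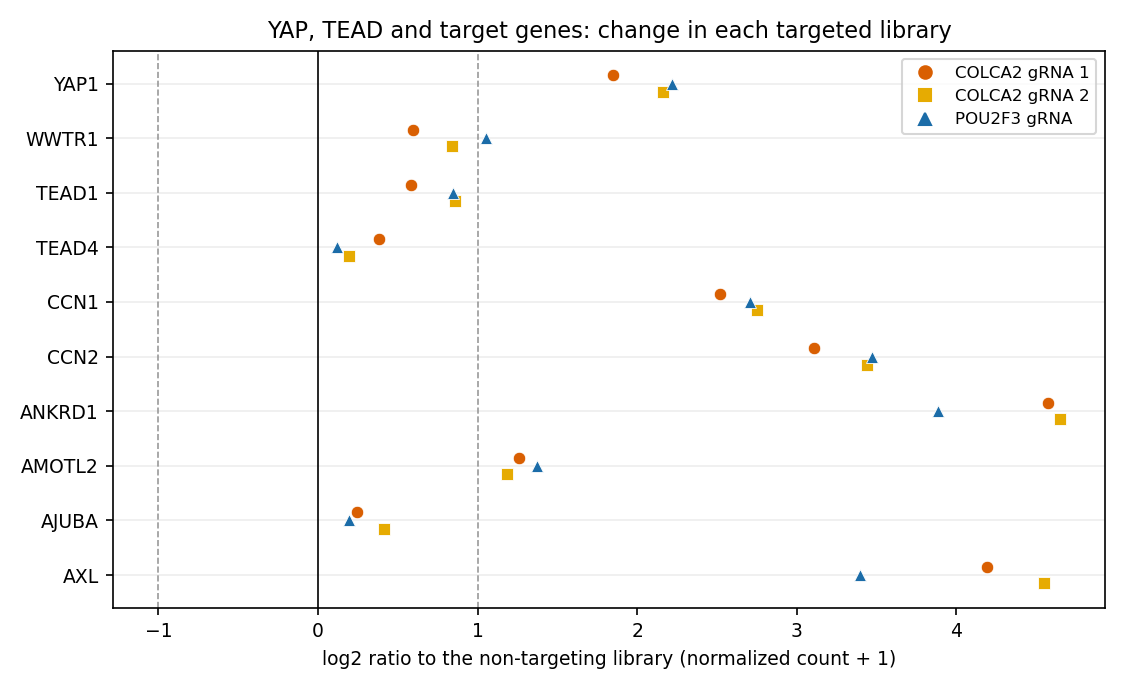
Log2 ratio of each gene to the single non-targeting library, 1 point per targeted library, with dashed lines at a 2-fold change in each direction. CCN1, CCN2, ANKRD1, AXL, AMOTL2 and YAP1 lie beyond 2-fold in all 3 libraries, WWTR1 in 1 library, and TEAD1, TEAD4 and AJUBA in none.

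With both COLCA2 guides, 6 of the 10 genes were at least 2-fold higher than with the non-targeting gRNA, against 5.79% of all 14940 genes tested. They were YAP1, CCN1, CCN2, ANKRD1, AMOTL2 and AXL. With POU2F3 gRNA 7 of the 10 were at least 2-fold higher, against 6.73% of all genes, the additional one being WWTR1. In neither comparison was any of the 10 at least 2-fold lower, which 2.02% of all genes were with both COLCA2 guides and 3.05% with POU2F3 gRNA. The median log2 ratio of the 10 genes was 1.55 with gRNA 1, 1.67 with gRNA 2 and 1.79 with POU2F3 gRNA, beside medians of -0.0052, -0.0017 and -0.0037 over all genes. All 10 genes were lower in the non-targeting library than in each targeted library, a pattern that 34.4% of all genes had, while 35.3% were higher there than in each targeted library. AXL is in these counts although it passed the minimum only through the targeted libraries. The 10 genes were chosen with earlier results of these data known, so their counts are not independent of those results. Ranked among the 14940 genes by the mean ratio over the COLCA2 guides, ANKRD1 was number 49, AXL 68, CCN2 160, CCN1 260 and YAP1 398. By the ratio with POU2F3 gRNA, ANKRD1 was number 54, CCN2 82, AXL 95, CCN1 203 and YAP1 302.

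edgeR's quasi-likelihood test on the recovered reads, adjusted over all genes at 0.05, called 8 of the 10 higher with COLCA2 gRNA and 8 with POU2F3 gRNA, where it called 11.4% and 8.45% of all genes higher. It added WWTR1 and TEAD1 to the genes above and left out TEAD4 and AJUBA. It called none of the 10 lower, beside 7.51% and 3.98% of all genes. DESeq2's Wald test on the same reads also called 8 of the 10 higher in each comparison and none lower, beside 8.33% higher and 4.18% lower of all genes for COLCA2, and 6.15% and 2.69% for POU2F3. The edgeR test has 1 residual degree of freedom, from the COLCA2 guides, and compares these libraries, not the conditions.

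**Figure D3:**
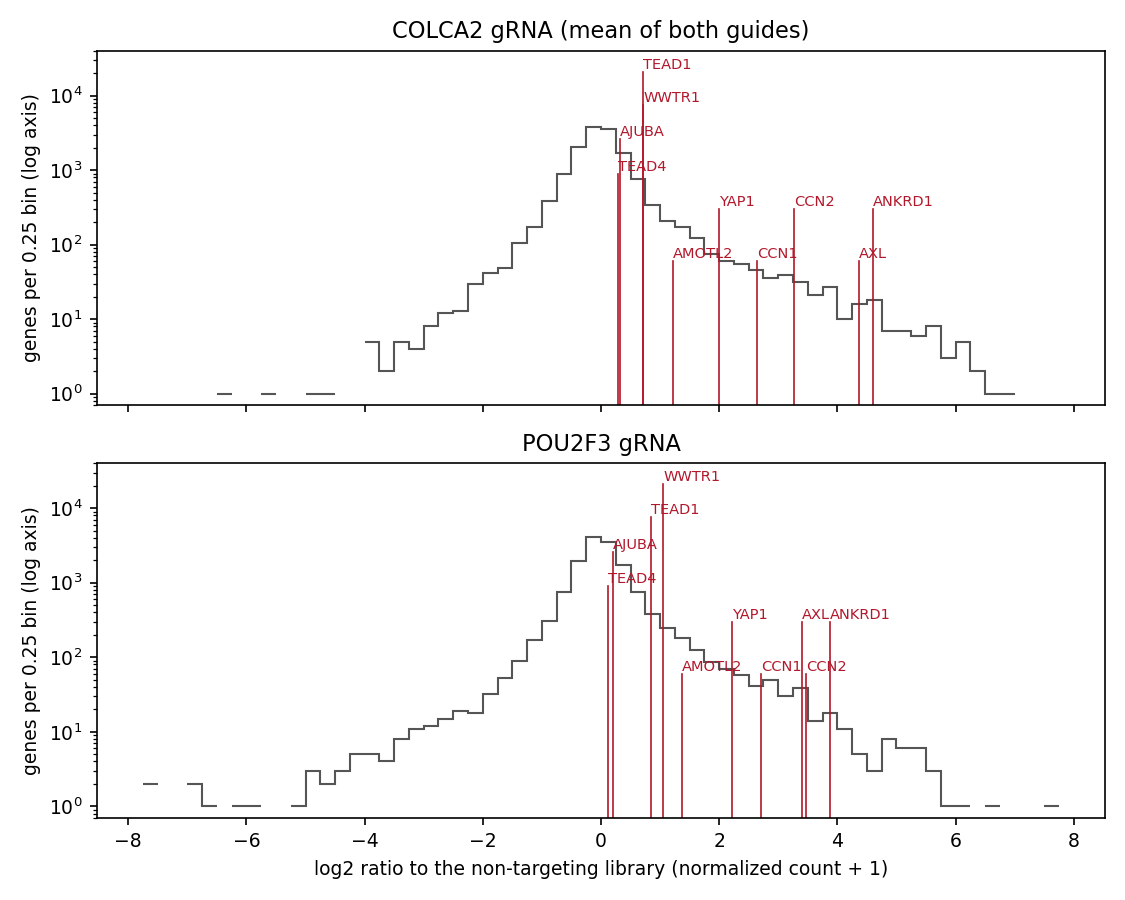
Number of genes (log axis) in log2 ratio bins of 0.25 for all 14940 genes, with the 10 genes drawn as lines whose heights only separate the names, for the mean of the COLCA2 guides and for POU2F3 gRNA. ANKRD1 and AXL lie in the upper tail at 4.61 and 4.37 with COLCA2 gRNA, while TEAD4 and AJUBA lie within the bulk of genes.

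Levels of different genes were compared per kilobase of the longest transcript in GENCODE release 29. In the non-targeting library the order of levels per kilobase was CCN1 (1398), AMOTL2 (833), TEAD4 (675), AJUBA (520.5), CCN2 (496), WWTR1 (432), TEAD1 (262), YAP1 (144), ANKRD1 (51.6) and AXL (2.02). In each of the targeted libraries CCN1, CCN2 and AMOTL2 held the highest 3 places. CCN2 per kilobase was 4282 with gRNA 1, 5373 with gRNA 2 and 5511 with POU2F3 gRNA. ANKRD1, second lowest in the non-targeting library, reached 1239, 1306 and 768 per kilobase. TEAD4 was above WWTR1 with COLCA2 gRNA 1 (878 and 651 per kilobase) and level with it with gRNA 2 (773.1 and 773.4). WWTR1 was above AJUBA (615 and 694) with each guide, and AJUBA was above YAP1 (518 and 644) with each guide. The ranges of these neighbours over the guides nevertheless overlapped. The lengths of the transcripts in use were not measured, and they bear on each level per kilobase.

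The POU2F3 gRNA library was also set directly against the COLCA2 libraries, which does not use the non-targeting library. None of the 10 genes was at least 2-fold apart from both guides in 1 direction, against 1.37% of all genes (0.442% higher and 0.924% lower). ANKRD1 and AXL stood below both guides by the largest amounts. The ANKRD1 level with POU2F3 gRNA was 62.0% of that with gRNA 1 and 58.8% of that with gRNA 2, a mean log2 difference of -0.73 beside an SD of 0.053 between the guides. AXL with POU2F3 gRNA was at 57.3% of gRNA 1 (a ratio of 0.573, 0.455 to 0.721) and 44.7% of gRNA 2 (0.447, 0.357 to 0.559), so it passed 2-fold against gRNA 2 alone. WWTR1 was above both guides, 1.38-fold (1.32 to 1.44) over gRNA 1 and 1.16-fold (1.11 to 1.21) over gRNA 2. For YAP1 the corresponding folds were 1.29 (1.23 to 1.36) and 1.04 (0.991 to 1.09), and for CCN2 1.29 (1.25 to 1.32) and 1.03. CCN1 and TEAD1 lay between the guides. In all, 4 of the 10 genes were below both guides and 4 above both, beside 38.9% and 35.6% of all genes. edgeR's quasi-likelihood test called none of the 10 in this comparison, where it called 0.107% of all genes higher and 0.234% lower. Its adjusted p was 0.061 for ANKRD1 and 0.24 for AXL. DESeq2's Wald test called ANKRD1 alone, as lower with POU2F3 gRNA (adjusted p 0.0049), where it called 0.335% of all genes higher and 0.622% lower.

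Most of the 10 genes also differed in 1 direction between the guides: 8 were higher with gRNA 2 than with gRNA 1, a pattern that 51.1% of all genes had. The exceptions were TEAD4 and AMOTL2. This was not particular to the 10 genes. The same pattern was found for 20 of the 24 Hippo regulators (83.3%) and 14 of the 17 other YAP targets (82.4%) described below. The median log2 difference of gRNA 1 minus gRNA 2 over the 10 genes was -0.24, beside -0.0045 over all genes. POU2F3 RNA was 3677 with gRNA 1 and 2351 with gRNA 2, and any relation of these values to the target levels was not tested.

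Hippo pathway regulators were described from a list of 24 genes, chosen with earlier results of these data known. The list includes inhibitors that bind YAP or TEAD as well as genes that act above YAP. All 24 passed the expression minimum. Of these, 2 were at least 2-fold higher with both COLCA2 guides and 3 with POU2F3 gRNA (8.33% and 12.5% of the 24, beside 5.79% and 6.73% of all genes). None was 2-fold lower, as 2.02% and 3.05% of all genes were. None of the 7 core kinase cassette genes reached 2-fold. STK3, the kinase MST2, had log2 ratios of 0.06, 0.02 and 0.07 with gRNA 1, gRNA 2 and POU2F3 gRNA, and MOB1A, a LATS cofactor, had -0.04, 0.10 and -0.0020. STK4, the kinase MST1, had -0.28, -0.26 and 0.02, and the scaffold gene SAV1 had 0.34, 0.60 and 0.48. LATS2, a kinase that is itself a YAP target, stood highest of the cassette at 0.85, 0.90 and 0.80. LATS1, the other LATS kinase, and MOB1B, named after their values were seen, were the cassette genes lower in all 3 targeted libraries, at -0.47, -0.25 and -0.24, and at -0.46, -0.37 and -0.15.

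The genes beyond 2-fold were upstream regulators and an angiomotin. FRMD6, a FERM domain activator of the pathway, had normalized counts of 369.6 with the non-targeting gRNA, 1495 and 2079 with COLCA2 gRNA 1 and gRNA 2, and 2423 with POU2F3 gRNA. WWC1, which encodes the LATS-activating protein KIBRA, had 1639, 4592 and 5393, and 3699 in the same order. Both were therefore at least 2-fold higher in all 3 targeted libraries, as 4.89% of all genes were, and 1.5% were at least 2-fold lower in all 3. AMOT, an angiomotin that holds YAP outside the nucleus, was named after its values were seen: its log2 ratio was 0.87 and 0.95 with the guides and 1.51 with POU2F3 gRNA. The median log2 ratio of the 24 regulators was 0.06 for the mean of the guides and 0.29 with POU2F3 gRNA.

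**Figure D4:**
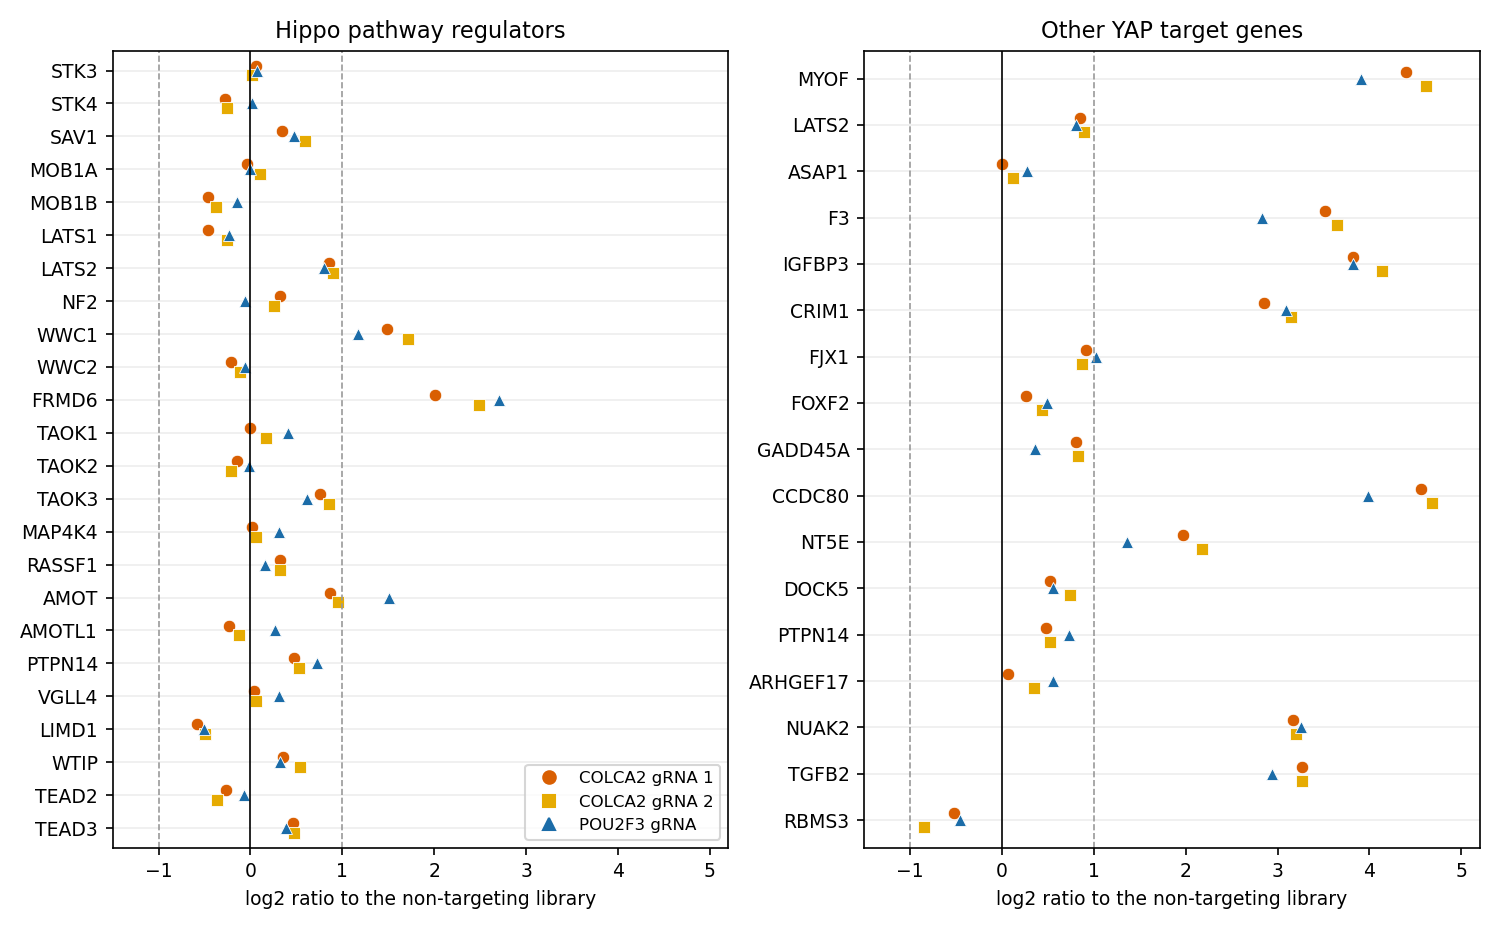
Log2 ratio to the non-targeting library of 24 Hippo regulators (left) and 17 other YAP target genes (right), 1 point per targeted library, with dashed lines at 2-fold. FRMD6 and WWC1 stand out on the left, and 8 genes lie beyond 2-fold in all 3 libraries on the right. LATS2 and PTPN14 are in both panels.

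A further 17 genes commonly used as a YAP and TAZ target signature, other than the 10 above, were examined in the same way. All 17 passed the minimum, and the list was chosen with earlier results of these data known. With both COLCA2 guides 8 of the 17 (47.1%) were at least 2-fold higher, and with POU2F3 gRNA 9 (52.9%), beside 5.79% and 6.73% of all genes. None was 2-fold lower, as 2.02% and 3.05% of all genes were. The 8 genes were MYOF, F3, IGFBP3, CRIM1, CCDC80, NT5E, NUAK2 and TGFB2, and the ninth was FJX1, at a log2 ratio of 1.03 with POU2F3 gRNA. CCDC80, which encodes a secreted matrix protein, had normalized counts of 107 with the non-targeting gRNA, 2538 and 2761 with COLCA2 gRNA 1 and gRNA 2, and 1703 with POU2F3 gRNA. MYOF, a membrane repair ferlin, had 183, 3889 and 4511, and 2773 in the same order. Both had their lowest targeted level with POU2F3 gRNA, as ANKRD1 and AXL did.

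F3, the coagulation initiator tissue factor, had a mean log2 ratio of 3.58 ± 0.094 over the guides (SD, n = 2) and 2.83 with POU2F3 gRNA. NT5E, the ecto-nucleotidase CD73, had 2.08 ± 0.15 and 1.36. The growth factor gene TGFB2 had 3.27 ± 0.0040 and 2.94, and the IGF-binding protein gene IGFBP3 had 3.98 ± 0.22 and 3.82. NUAK2, which encodes an AMPK-related kinase, had 3.19 ± 0.023 and 3.26. CRIM1, a transmembrane protein gene with 2 rows that were summed, had folds of 7.24 and 8.88 with the guides and 8.52 with POU2F3 gRNA. Against both COLCA2 guides, 8 of the 17 genes (47.1%) were lower with POU2F3 gRNA, beside 38.9% of all genes, and 7 (41.2%) were higher, beside 35.6%.

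The rest of that list had smaller ratios. ASAP1 had log2 ratios of 0.0034, 0.12 and 0.27 with gRNA 1, gRNA 2 and POU2F3 gRNA, and the forkhead gene FOXF2 had 0.27, 0.43 and 0.49. RBMS3, an RNA-binding protein gene named after its values were seen, was the only one of the 17 that was highest in the non-targeting library, at 501 beside 348, 278 and 365. The median over the 17 genes was 0.90 for the mean of the guides and 1.03 with POU2F3 gRNA.

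Genes with the profile most like that of YAP1 over the 4 libraries were sought by the Euclidean distance of centred log2 values among 12429 genes. The nearest were SLCO2A1 (0.088), WNT11 (0.13), NCOA7 (0.13), ROR1 (0.17) and OSBPL10 (0.18). NCOA7 was at a similar count to YAP1, at 763 with the non-targeting gRNA, 2897 and 3570 with the guides, and 3332 with POU2F3 gRNA. The nearest to CCN2 were EDIL3 (0.050), UNC5C (0.062), PTX3 (0.11), AQP1 (0.14) and ADGRF5 (0.22). EDIL3 had normalized counts of 261, 2312 and 2825, and 2833 in the same order. With 4 libraries, of which 1 differs most, many genes can come this close, and the distances are descriptions.

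Some markers of other cell types differed in the same libraries. Among all genes, 4.89% were at least 2-fold higher in all 3 targeted libraries and 1.5% at least 2-fold lower. Of 5 stromal markers, LUM and PDGFRB were at least 2-fold higher in all 3 targeted libraries, and COL1A1, COL1A2 and DCN were not. The summed level of the 5 was 1219 with the non-targeting gRNA, 1664 and 1409 with the COLCA2 guides, and 1267 with POU2F3 gRNA. COL1A2 stayed at or below 23.8 and DCN at or below 61.2. Of 4 epithelial markers, KRT8, KRT18 and CDH1 were at least 2-fold higher in all 3 targeted libraries. EPCAM was instead lower there, at 3986 with the non-targeting gRNA, 2945 and 3408 with the guides, and 2463 with POU2F3 gRNA. The sum of the 4 was 12082 with the non-targeting gRNA, 32801 and 37107 with the guides, and 25820 with POU2F3 gRNA. Of 5 tuft markers, POU2F3, AVIL and SOX9 were at least 2-fold lower in all 3. The sum of the 5 was 38002 with the non-targeting gRNA, 13361 and 9982 with the guides, and 9448 with POU2F3 gRNA. SOX9 made up 17848 and POU2F3 14602 of the non-targeting sum, and POU2F3 is itself the gene targeted in the POU2F3 gRNA library. The endothelial marker PECAM1 was between 22.0 and 25.2 in every library, and CDH5 was listed at 0 in the non-targeting and gRNA 1 libraries and was 8.23 with gRNA 2 and 6.71 with POU2F3 gRNA. Finally, the leukocyte marker PTPRC did not exceed 16.2. The part of such differences in the levels of the YAP genes was not tested.

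For 5 of the 10 genes, YAP1, WWTR1, TEAD1, CCN2 and AXL, GENCODE release 29 places a gene on the opposite strand within the locus. Those genes were not analysed here, and the use of strand in the counting is not given in the sources used here, so the counts of the 5 genes are uncertain to that extent.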

How the data were processed

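Poly(A) RNA of 4 NCI-H1048 libraries was sequenced: 2 for COLCA2 gRNA and 1 each for POU2F3 and non-targeting gRNA. The authors deposited normalized counts, a linear signal per gene, per the file headers. Salmon, DESeq2 and hg38 are named in the submitters' processing notes, and the annotation is not given in the sources used here. Dividing by the smallest step of a library gave whole reads for 100% of values (tolerance 0.001 reads). Whole values do not show that estimated counts were not rounded.

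Rows of a symbol were summed. The minimum was an average of 20 across libraries (14940 genes). Log2 ratios had 1 added to each value, and a 2-fold rule without a test was applied, which both guides had to meet for COLCA2. Alternatives were other pseudocounts, minimums, folds and scalings, each guide left out, the highest row of a symbol, edgeR's quasi-likelihood test (4.0.16) and DESeq2's Wald test (1.42.0) on recovered reads. edgeR called 1709 genes higher and 1122 lower for COLCA2, 1263 and 595 for POU2F3, and 16 and 35 between them. Scripts were tested on simulated data. The members and lists were chosen with earlier results of these data known. Named are the 10 members, genes of the Hippo and target lists at least 2-fold apart in all 3 targeted libraries, the first 4 others of each list, the targeted genes, and the 5 genes nearest in profile to YAP1 and to CCN2. AMOT, TEAD2, TEAD3, LATS1, MOB1B and RBMS3 were named after their values were seen, and markers check the cell type. Whether the guides' cultures were separate is not stated. Positions are from GENCODE 29 (GRCh38) and promoters from RefSeq (GRCh38.p14).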

Additional observations from a re-analysis of the deposited data

How the results depend on the processing

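The ratios of the 10 genes to the non-targeting library changed sign in none of 180 values under other pseudocounts, minimums, scalings, the highest row of a symbol or a guide left out. Of 100 such values between POU2F3 and COLCA2 gRNA, 2 changed sign, both without gRNA 1: TEAD1 at -0.01 and CCN1 at -0.04. Under other scalings the all-gene median shifted by 0.069 at most. A count is called moved here when it changed by more than 1.5 times. By that definition, the counts of the 10 genes at least 2-fold higher or lower than in the non-targeting library did not move under any alternative run. They were nevertheless smaller at 4-fold. YAP1 (log2 ratio 1.85 with gRNA 1) and AMOTL2 dropped out of the COLCA2 count there, and WWTR1 and AMOTL2 out of the POU2F3 count. The count apart between POU2F3 gRNA and both guides was 0; it was 2 at 1.5-fold, 1 by DESeq2's Wald test (ANKRD1, adjusted p 0.0049, where edgeR gave 0.061) and 0 to 1 with a guide left out (AXL, without gRNA 1). Of the Hippo regulators, 5 were higher with COLCA2 gRNA and 6 with POU2F3 gRNA at 1.5-fold, and 1 in each at 4-fold. edgeR called 8 Hippo regulators higher and 2 lower with COLCA2 gRNA, and 6 higher and 1 lower with POU2F3 gRNA, beside 11.4%, 7.51%, 8.45% and 3.98% of all genes. DESeq2 called 6 Hippo regulators higher and 1 lower with COLCA2 gRNA, and 5 higher with POU2F3 gRNA, beside 8.33%, 4.18% and 6.15% of all genes. Of the other YAP targets, edgeR and DESeq2 each called 13 higher with COLCA2 gRNA, beside 11.4% and 8.33% of all genes. edgeR called 1 of them lower and DESeq2 called 0, beside 7.51% and 4.18% of all genes. With POU2F3 gRNA, edgeR called 11 of them higher and DESeq2 called 10, beside 8.45% and 6.15% of all genes. Neither called any of them lower there, beside 3.98% and 2.69% of all genes. These tests have no fold threshold, so smaller changes enter. No paired analysis was possible because no more than 1 replicate number is common to the compared groups. Counting error limits AXL most, with 10 non-targeting reads.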

Other observations

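Relatives of the 10 genes, chosen after the values of the members had been seen, were read in the same way. The vestigial-like genes encode alternative TEAD cofactors. VGLL3 had normalized counts of 172 with the non-targeting gRNA, 325 and 354 with COLCA2 gRNA 1 and gRNA 2, and 389 with POU2F3 gRNA. VGLL2 had 7.64, 144 and 119, and 121 in the same order. VGLL1 was listed at 0 with the non-targeting gRNA and had 28.0, 29.4 and 13.4 in the targeted libraries, a mean below the minimum of 20. Among the CCN family, CCN3 had a mean log2 ratio of 1.68 ± 0.033 over the guides (SD, n = 2) and 1.99 with POU2F3 gRNA, whereas CCN4, CCN5 and CCN6 did not exceed 11.8 in any library. ANKRD23, a relative of ANKRD1, had normalized counts of 100.3 with the non-targeting gRNA, 70.5 and 77.6 with the guides, and 100.7 with POU2F3 gRNA. ANKRD2 had 0.955, 10.4 and 12.9, and 7.55 in the same order, a mean below the minimum.

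The other TAM receptors did not differ as AXL did. TYRO3 had normalized counts of 2917 with the non-targeting gRNA, 2726 and 2882 with the COLCA2 guides, and 2837 with POU2F3 gRNA, and MERTK had 159, 138 and 159, and 151. GAS6, a ligand of these receptors, had 275, 871 and 886, and 806, and was at least 2-fold higher in all 3 targeted libraries. PROS1, the other ligand, had 431, 425 and 415, and 393. The difference between AXL and its relatives was not tested.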
